A study of Mus musculus with 10 samples.

Results

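Stretch-sensing channels of the PIEZO and transient receptor potential (TRP) families were examined as 9 genes, Piezo1, Piezo2, Trpc1, Trpc6, Trpm4, Trpm7, Trpv2, Trpv4 and Pkd2, chosen by symbol from 48397 gene symbols. All 9 were present in the count tables and passed the filter on low counts. RNA of the left atrium was sequenced in bulk from wild-type mice, per the series text C57BL/6J males operated at 2 months of age and sampled 2 weeks later. Of the 10 libraries, 5 followed transverse aortic constriction (TAC), surgery in which a ligature around the aorta makes the left heart work against a higher pressure, and 5 followed a sham operation. The labels call the tissue left atrium and name the RNeasy Plus and Nugen Trio kits, whereas the series text names the left appendage and a TruSeq kit. They do not say that each library is a separate animal, so that p-values measure the spread between these libraries, part of which may be technical.

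PIEZO proteins are large trimeric cation channels that open when the membrane is put under tension. TRP channels are tetramers that let sodium and, in most members, calcium into the cell in answer to lipids, calcium, swelling, heat or stretch, and for several of them it is debated whether stretch opens the pore directly. In the atrium, which is stretched when the pressure behind a loaded ventricle backs up, such channels have been studied as a route from mechanical load to calcium entry in muscle cells, fibroblasts and endothelium.

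Promoter sequence is shown for 4 of the genes, because Piezo1, Pkd2 and Trpc6 rose after TAC while Trpc1, the family partner of Trpc6, fell. RefSeq promoter windows of GRCm38.p6 were kept for 7 of the 9 genes. Piezo2 and Trpm4 were not among them, so the motif counts below say nothing about these genes. The windows printed are the 250 bases before the transcription start, 5′ to 3′ on the gene's strand, at chr8:122551330-122551579 (minus strand) for Piezo1, chr5:104459207-104459456 (plus) for Pkd2, chr9:8543892-8544141 (plus) for Trpc6 and chr9:95750349-95750598 (minus) for Trpc1. Capitals mark matches, on either strand, to 6 motifs, namely GGGCGG (Sp and KLF factors), GGAATG (TEAD factors), CCGGAA (ETS factors, the family of ETV1), TGANTCA (AP-1), GGAAA (core of NFAT sites, which can overlap the letters of ETS sites) and the TATA box, TATAAA.
Piezo1: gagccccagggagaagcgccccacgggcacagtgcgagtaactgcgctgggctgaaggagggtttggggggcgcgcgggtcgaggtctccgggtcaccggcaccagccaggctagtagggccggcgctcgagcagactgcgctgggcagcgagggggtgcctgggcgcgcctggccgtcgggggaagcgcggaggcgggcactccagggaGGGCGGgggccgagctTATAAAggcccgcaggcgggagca
Pkd2: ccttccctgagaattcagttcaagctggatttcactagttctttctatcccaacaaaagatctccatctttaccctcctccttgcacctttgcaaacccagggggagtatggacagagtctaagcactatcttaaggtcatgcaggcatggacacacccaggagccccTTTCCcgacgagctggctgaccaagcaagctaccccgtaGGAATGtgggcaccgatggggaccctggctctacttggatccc
Trpc6: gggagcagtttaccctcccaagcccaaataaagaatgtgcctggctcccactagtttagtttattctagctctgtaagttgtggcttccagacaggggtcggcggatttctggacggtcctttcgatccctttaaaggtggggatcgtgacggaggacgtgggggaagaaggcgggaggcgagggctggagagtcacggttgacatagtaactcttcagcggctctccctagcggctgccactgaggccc
Trpc1: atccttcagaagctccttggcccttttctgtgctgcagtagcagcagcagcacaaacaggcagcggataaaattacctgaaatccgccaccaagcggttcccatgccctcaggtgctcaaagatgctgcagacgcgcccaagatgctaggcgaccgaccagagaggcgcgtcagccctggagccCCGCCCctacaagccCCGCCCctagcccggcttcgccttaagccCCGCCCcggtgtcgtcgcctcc
The Piezo1 window held a GC box beginning 40 bases and a TATA box beginning 24 bases before the start, and its GC content was 74%, against a median of 52.4% over 32851 mouse promoter windows of the same length. Pkd2 held a TEAD match 43 bases before the start and an NFAT core 82 bases before it. Trpc1 held 3 GC boxes, 66, 51 and 22 bases before the start, and no letters of the 6 motifs were found in the Trpc6 window. Among the 7 genes with a window kept, the GC box was found in 3 (Piezo1, Trpc1 and Trpv4). The TEAD motif was found in 2 (Pkd2 and Trpv2) and the NFAT core in 3 (Pkd2, Trpm7 and Trpv2). Trpv2 has 3 windows in the RefSeq table, and its matches lay in 1 of them. In all windows the shares were 32.7%, 12.6% and 55.6% for these motifs. The TATA box was found in 1 of the 7 genes (Piezo1) and in 12.4% of all windows. The ETS motif, found in 12% of all windows, and the AP-1 motif, found in 6.75%, were found in 0 of the 7.

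Total counts over genes ran from 29493200 to 41358617 in the TAC libraries and from 17117306 to 43956384 in the sham libraries. Atrial muscle markers were abundant throughout, with a summed level of 19489 to 24189 CPM in TAC and 29552 to 32885 CPM in sham for a list of 10 that includes Myl7, Myl4, Sln and Nppa. By the test given below, 7 of the 10 were lower in TAC and 1, Nppa, was higher. Nppa made up much of the TAC sum, at a mean of 9834.1 CPM in TAC and 5663.5 CPM in sham. CPM, the usual depth-scaled count of RNA-seq, is given throughout after TMM scaling of the library sizes. The transcriptomes of the groups differed widely, and 56.8% of 15175 tested genes were called by the edgeR quasi-likelihood test at a Benjamini-Hochberg adjusted p under 0.05 (28.9% higher in TAC and 27.9% lower). Against that background, 7 of the 9 channel genes were called. Piezo1, Piezo2, Trpc6, Trpv2 and Pkd2 rose, Trpc1 and Trpm4 fell, and Trpm7 and Trpv4 did not pass. The median log2 fold change (TAC over sham) was 0.76 over the 9 and 0.01 over all genes tested. The CPM of the groups did not overlap for 6 of the 9, against 41.7% of all genes tested. When libraries were scaled by size alone, the median of all genes moved up by 0.36 (log2), the same 5 genes rose with Trpm7 as the sixth, and none of the 9 was called lower. In bulk RNA, fewer cells of a type and less RNA per cell cannot be told apart.

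**Figure D1:**
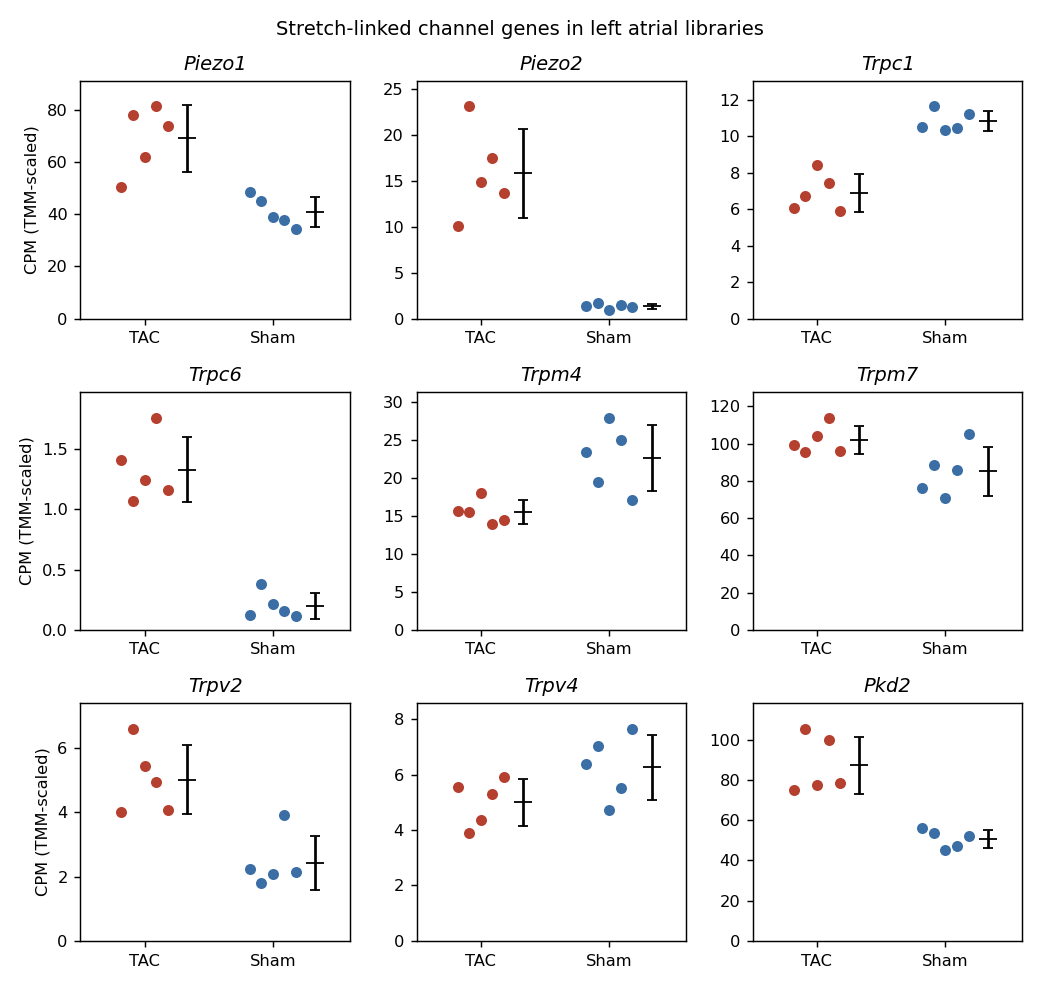
TMM-scaled CPM of each channel gene (vertical axes, starting at 0) in the 5 TAC and 5 sham libraries, 1 point per library, with mean and SD as the bar beside the points. Piezo2 and Trpc6 stand far above sham in every TAC library, Trpc1 stands below it, and the points of Trpm4, Trpm7 and Trpv4 overlap between groups.

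The PIEZO genes both rose, Piezo2 by far more than Piezo1. Piezo1 (chromosome 8, 122481698 to 122551329, GRCm38, minus strand), which encodes the tension-gated channel known from endothelium, red cells and fibroblasts, stood at 50.2, 77.9, 61.8, 81.2 and 73.8 CPM in TAC replicates 1 to 5, against 48.3, 44.9, 38.8, 37.9 and 34.2 CPM in sham replicates 1 to 5. The groups did not overlap, although TAC replicate 1 lay close to the highest sham library. The mean was 69.0 ± 12.8 CPM in TAC and 40.8 ± 5.69 CPM in sham (SD, n = 5 each), a log2 fold change of 0.76 (SE 0.14, edgeR adjusted p = 0.00063). The 2 highest sham values came from the shallowest libraries, and without these 2 the log2 fold change was 0.89. Of the exonic bases of Piezo1, 24.6% are shared with Ctu2 on the opposite strand. The sources used here do not give the strand setting of the counting, so reads there cannot be told apart. Ctu2 was counted at 7.04 ± 0.673 CPM in TAC and 6.09 ± 0.623 CPM in sham (SD, n = 5 each) and was not called (edgeR adjusted p = 0.13), and what the shared bases add to the Piezo1 counts was not tested.

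Piezo2 (chromosome 18, 63010213 to 63387183, minus strand), the channel of touch and body position sense in sensory neurons and Merkel cells, was nearly silent in sham atria. In TAC replicates 1 to 5 it reached 10.02, 23.1, 14.8, 17.4 and 13.6 CPM, against 1.43, 1.66, 0.973, 1.44 and 1.24 CPM in sham replicates 1 to 5. The lowest TAC library stood far above the highest sham library, and the raw counts were 433 to 925 in TAC and 23 to 56 in sham. The log2 fold change was 3.57 (SE 0.24, edgeR adjusted p = 1.1e-06), which is 11.8-fold, and it lay at percentile 98.5 of all tested genes. It ranged from 3.41 to 3.94 over 23 alternative settings. Per kb of exon, Piezo1 exceeded Piezo2 by 5.84 to 9.37 times in the TAC libraries and by 45.3 to 68.9 times in the sham libraries. Piezo2 took 2.99% ± 0.687 of the length-scaled sum over the 9 genes in TAC and 0.352% ± 0.0556 in sham (SD, n = 5 each). Of 13 markers of Schwann cells and neurons, 9 were tested, of which 2 were higher (Uchl1 and Ngfr) and 5 lower (among them Sox10 and Kcna1) in TAC. Their summed level was 57.3 to 99.7 CPM in TAC and 62.6 to 73.3 CPM in sham, and Chat was at 0 in every library. Uchl1 made up much of the TAC sum, at 34.7 ± 13.2 CPM in TAC and 2.67 ± 0.665 CPM in sham (SD, n = 5 each). Without Uchl1, left out after its values were seen, the sum was 30.4 to 43.6 CPM in TAC and 61.0 to 70.9 CPM in sham and did not overlap. The part of these markers in the Piezo2 result was not tested.

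The canonical TRP genes moved apart. Trpc6 (chromosome 9, 8544142 to 8680741, plus strand) encodes a channel opened by diacylglycerol, the lipid made when Gq-coupled receptors activate phospholipase C, and has been tied in mice to calcineurin and NFAT signalling in the overloaded heart. It measured 1.41, 1.07, 1.24, 1.76 and 1.16 CPM in TAC replicates 1 to 5, against 0.124, 0.383, 0.213, 0.155 and 0.113 CPM in sham replicates 1 to 5. All TAC libraries lay above all sham libraries, but the sham level rests on only 2 to 7 reads per library, against 42 to 61 in TAC. The log2 fold change of 2.79 (SE 0.32, edgeR adjusted p = 2.7e-05) is therefore less precise than that of Piezo2. It ranged from 2.64 to 3.15 over 23 alternatives.

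Trpc1 (chromosome 9, 95705082 to 95750375, minus strand), whose product joins other TRPC subunits in mixed channels, fell. Its values were 6.06, 6.70, 8.41, 7.46 and 5.91 CPM in TAC replicates 1 to 5, and 10.5, 11.6, 10.4, 10.5 and 11.2 CPM in sham replicates 1 to 5. The groups did not overlap, and the sham libraries lay close together. Its log2 fold change was -0.65 (SE 0.12, edgeR adjusted p = 0.00054), and scaled by library size alone it was -0.29 and no longer passed (edgeR adjusted p = 0.071, against 3.6e-07 to 0.071 over 23 alternatives). Per kb of exon, Trpc1 exceeded Trpc6 by 2.67 to 4.27 times in the TAC libraries and by 19.1 to 62.9 times in the sham libraries.

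Of the melastatin TRP genes, Trpm4 fell and Trpm7 did not pass the test. Trpm4 (chromosome 7, 45302632 to 45333780, minus strand) encodes a channel that opens on internal calcium, passes sodium and potassium but not calcium, and is known for a role in cardiac conduction. It was measured at 15.7, 15.6, 18.1, 13.9 and 14.5 CPM in TAC replicates 1 to 5, against 23.4, 19.5, 27.99, 25.1 and 17.2 CPM in sham replicates 1 to 5. The ranges met only at sham replicate 5, which lay below TAC replicate 3. Trpm4 had a log2 fold change of -0.54 (SE 0.13, edgeR adjusted p = 0.0040), and when scaled by library size alone it was -0.19 and not called (edgeR adjusted p = 0.27, against 0.00041 to 0.27 over 23 alternatives). Markers of heart muscle moved in the same direction, with 9 of 10 lower and 1 higher in TAC, and a summed level of 35780 to 48781 CPM in TAC and 87294 to 103784 CPM in sham. Their part in the result was not tested.

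Trpm7 (chromosome 2, 126791565 to 126876230, minus strand), a channel for magnesium, zinc and calcium fused to a kinase, had the most CPM of the 9 in either group. Its level was 99.4, 95.5, 103.8, 113.9 and 96.1 CPM in TAC replicates 1 to 5, against 76.4, 88.3, 70.7, 85.5 and 105.1 CPM in sham replicates 1 to 5. Every TAC library exceeded 4 of the sham libraries, and sham replicate 5 lay within the TAC range. The Trpm7 log2 fold change of 0.26 (SE 0.10) missed the threshold (edgeR adjusted p = 0.052, unadjusted p = 0.029). It passed under 11 of 23 alternatives, among them DESeq2 (adjusted p = 0.046) and limma voom (adjusted p = 0.023), within a range of 0.00016 to 0.18. The call also appeared when a single library was left out, with an edgeR adjusted p of 0.0074 without sham replicate 5, 0.047 without TAC replicate 1, 0.044 without TAC replicate 2 and 0.049 without TAC replicate 5. Without the 2 shallow sham libraries it was 0.22 and farther from the threshold (edgeR adjusted p = 0.18).

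The vanilloid TRP genes were both low, and they differed in outcome. Trpv2 (chromosome 11, 62574486 to 62600515, plus strand), known in muscle from the intercalated disc and in blood cells from macrophages, stood at 4.03, 6.60, 5.45, 4.93 and 4.06 CPM in TAC replicates 1 to 5, against 2.24, 1.79, 2.07, 3.92 and 2.14 CPM in sham replicates 1 to 5. The groups did not overlap, but sham replicate 4 reached almost to the lowest TAC library. Trpv2 rose, and its log2 difference of 1.02 (SE 0.23, edgeR adjusted p = 0.0026) ranged from 0.87 to 1.39 over 23 alternatives. All 12 macrophage and monocyte markers were higher in TAC as well. Their sum was 792, 1379, 1163, 1140 and 895 CPM in TAC replicates 1 to 5 and 343, 386, 314, 550 and 321 CPM in sham replicates 1 to 5, so that sham replicate 4 was the highest sham library in both measures. The part of the macrophage markers in the Trpv2 result was not tested.

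Trpv4 (chromosome 5, 114622152 to 114658421, minus strand), a channel opened by cell swelling and studied in endothelium and cardiac fibroblasts, gave 5.55, 3.91, 4.35, 5.29 and 5.91 CPM in TAC replicates 1 to 5, against 6.39, 7.03, 4.71, 5.52 and 7.66 CPM in sham replicates 1 to 5. The groups overlapped. A log2 fold change of -0.32 was fitted (SE 0.17, edgeR adjusted p = 0.12), and it was 0.04 when scaled by library size alone, so no direction is given. Per kb of exon, Trpv2 stood at 0.625 to 1.53 times Trpv4 in TAC and at 0.231 to 0.646 times Trpv4 in sham.

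Pkd2 (chromosome 5, 104459450 to 104505819, plus strand), which encodes polycystin-2, a TRP-type channel of the primary cilium and the endoplasmic reticulum, rose. It counted 75.2, 105.4, 77.6, 99.8 and 78.3 CPM in TAC replicates 1 to 5, and 56.0, 53.6, 45.1, 47.1 and 51.9 CPM in sham replicates 1 to 5. The lowest TAC library was clear of the highest sham library. Pkd2 had a log2 fold change of 0.78 (SE 0.11, edgeR adjusted p = 0.00011), and over 23 alternatives it ranged from 0.72 to 1.14. Pkd1, the gene of its large partner polycystin-1, stood at 163.5 ± 29.6 CPM in TAC and 129.1 ± 20.2 CPM in sham (SD, n = 5 each) and was not called (log2 fold change 0.34, edgeR adjusted p = 0.052). Pkd1 was chosen after its values were seen.

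**Figure D2:**
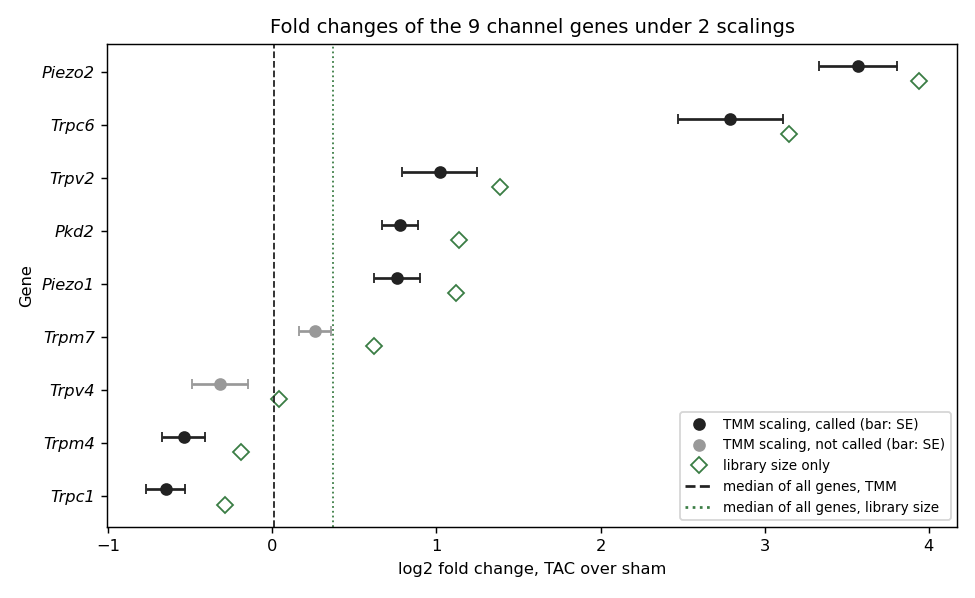
Log2 fold change (TAC over sham) of the 9 channel genes, with circles for TMM scaling (bar: SE, black where called) and diamonds for scaling by library size alone. Piezo2 at 3.57 and Trpc6 at 2.79 stand apart from the rest, and the vertical lines show the median of all tested genes at 0.01 and 0.37 under these scalings.

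Levels were compared between genes per kb of merged exon. In TAC the order was Trpm7, Pkd2, Piezo1, Trpm4, Trpv4, Trpv2, Piezo2, Trpc1 and Trpc6, from 8.99 ± 0.667 to 0.263 ± 0.0537 CPM per kb (SD, n = 5). In sham it was Trpm7, Pkd2, Piezo1, Trpm4, Trpv4, Trpc1, Trpv2, Piezo2 and Trpc6, from 7.53 ± 1.17 to 0.0390 ± 0.0219 CPM per kb (SD, n = 5). Trpm7 and Pkd2 were neighbours whose ranges overlapped in TAC, at 8.99 ± 0.667 and 8.58 ± 1.40 CPM per kb, but not in sham, at 7.53 ± 1.17 and 4.99 ± 0.445 CPM per kb (SD, n = 5 each). Clear gaps, with no overlap of neighbours, lay in TAC between Piezo1 and Trpm4 and between Trpc1 and Trpc6. In sham they lay between Trpm7 and Pkd2, Piezo1 and Trpm4, Trpc1 and Trpv2, and Trpv2 and Piezo2. All other neighbours overlapped, among them Trpm4, Trpv4, Trpv2, Piezo2 and Trpc1 in TAC, taken pair by pair. The 3 abundant genes Trpm7, Pkd2 and Piezo1 took 29.8%, 28.2% and 22.8% of the length-scaled sum in TAC and 33.7%, 22.4% and 18.5% in sham. With the longest transcript as the length, the first place in TAC went to Pkd2, at 16.7 CPM per kb against 14.3 for Trpm7, and in sham Trpm4 passed Piezo1, at 5.24 and 4.97 CPM per kb.

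**Figure D3:**
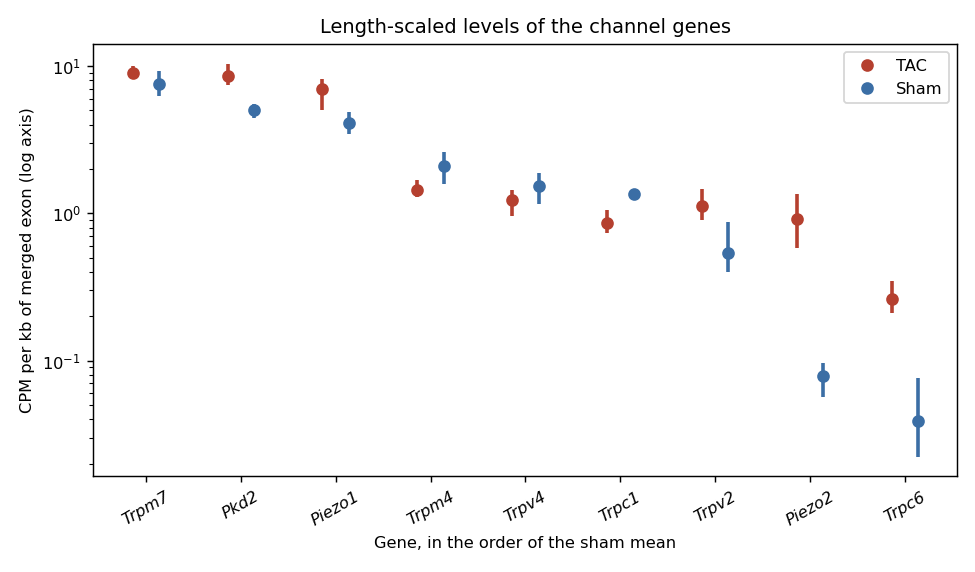
CPM per kb of merged exon (log axis) of the 9 genes, in the order of the sham mean, with the mean as a point and the range over 5 libraries as a line, TAC left of sham. Trpm7, Pkd2 and Piezo1 lie above the other genes in both groups, and Piezo2 and Trpc6 are lowest in sham.

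Within the groups the genes did not share an order of libraries. TAC replicate 1 had the lowest level of Piezo1, Piezo2, Trpv2 and Pkd2, that is of 4 of the 5 genes that rose, and the highest level of none. That library also had the highest mitochondrially encoded share of counts of the TAC libraries, 14.2%, against 9.31% to 12.1% in the others and 14.6% to 17.4% in sham. Its summed markers were the lowest of the TAC libraries for fibroblasts and macrophages and the highest for heart muscle. The part of these measures in the levels of the channel genes was not tested. TAC replicate 2 had the highest Piezo2, Trpv2 and Pkd2, and the highest summed fibroblast and macrophage markers. Leaving out TAC replicate 1 or TAC replicate 2 kept the 5 increases and 2 decreases, and Trpm7 was then called higher as well.

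The genes whose profile over the 10 libraries was most like that of each channel gene were found by the root mean square difference of log2 CPM, each gene centred on its own mean, among the 12166 genes that averaged 1 or more in log2 CPM. For Piezo1 they were Ptk7, Tmem176a and Mical2, at 0.093 to 0.102. For Pkd2 they were Cd63, the transcription factor gene Gli3 and Itgav, which encodes integrin alpha V, at 0.060 to 0.075. For Trpm7 they were Elf1, Cask and Ube2h, at 0.067 to 0.093. Trpc1 was nearest to Usp36, Tns2 and Vamp2, at 0.087 to 0.097. Trpm4 had Dhx35, Rit1 and Rgs7 at 0.110 to 0.128, and Trpv4 had Slc9a3r2, Gabarapl1 and Nfe2l2 at 0.103 to 0.122. The nearest to Trpv2 were Pfkfb4, the complement receptor gene C5ar1 and the complement gene C1qc, at 0.162 to 0.166. Piezo2 was nearest to Ddah1, the protease inhibitor gene Timp1 and Kcnj15, at 0.237 to 0.248, and Trpc6, measured on few reads, to Camk4, Rassf7 and Gins2, at 0.346 to 0.386.

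The rest of the TRP family was mostly too low to test. Of 21 other TRP genes, 6 were tested, of which 3 rose and 2 fell, with a median log2 fold change of 0.56. Trpm2, an oxidant-sensitive channel gene, stood at 1.22 ± 0.177 CPM in TAC and 0.139 ± 0.167 CPM in sham (SD, n = 5 each) and rose, with a log2 difference of 2.83 (SE 0.52, edgeR adjusted p = 0.00066). Trpm6, the closest relative of Trpm7, reached 1.54 ± 0.287 CPM in TAC and 0.311 ± 0.174 CPM in sham (SD, n = 5 each), a log2 fold change of 2.40 (SE 0.38, edgeR adjusted p = 0.00024). Both had few sham reads, 24 for Trpm2, of which 16 came from sham replicate 4, and 35 for Trpm6. Without sham replicate 4 the Trpm2 log2 fold change was 3.80 (edgeR adjusted p = 0.00011, against 3.8e-07 to 0.0033 over its alternatives), and with limma voom it was 3.45. Trpm3, the last that rose, had a log2 fold change of 0.80 (edgeR adjusted p = 0.018). The call of Trpm3 was lost without the 2 shallow sham libraries (edgeR adjusted p = 0.072). Pkd2l2, a relative of Pkd2, fell by 0.72 on the log2 scale, and so did the lysosomal channel gene Mcoln1 by 0.28, but scaled by library size alone neither was called and Mcoln1 stood at 0.08. Trpm3 and Mcoln1 were named with their values already known. The remaining 15 were under the filter, and Trpc2, Trpv5 and Mcoln3 had 0 reads in every library.

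Of 23 other channels gated by tension or cell volume, 14 were tested, with 5 higher and 3 lower in TAC and a median of 0.02. Panx1, which encodes a large-pore channel that releases ATP, measured 14.3 ± 1.72 CPM in TAC and 3.62 ± 1.06 CPM in sham (SD, n = 5 each), a log2 fold change of 1.99 (SE 0.18, edgeR adjusted p = 5.7e-06). The volume-regulated anion channel subunit genes Lrrc8b (0.60) and Lrrc8e (3.01) rose as well, Lrrc8e from a sham total of 23 reads. Tmem150c, reported as a component of a slowly adapting mechanical current, fell by 1.25 on the log2 scale to 0.511 CPM in TAC, against 1.22 CPM in sham.

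Among 29 partners and regulators of these channels, 27 were tested, with 6 higher and 11 lower and a median of 0.01. Mdfic, whose product binds PIEZO channels as an auxiliary subunit, measured 37.2 ± 3.10 CPM in TAC and 20.2 ± 1.92 CPM in sham (SD, n = 5 each), a log2 fold change of 0.88 (SE 0.09, edgeR adjusted p = 9.4e-06). Orai2, a pore subunit gene of store-operated calcium entry, rose by 1.83 (SE 0.22). Fkbp4, the gene of an immunophilin that binds TRPC channels, fell by 1.59 (SE 0.16) on the log2 scale. These counts depended on scaling and on single libraries. With library size alone 14 were higher and 5 lower, without TAC replicate 1 there were 10 higher, and without TAC replicate 2 or TAC replicate 3 there were 7 lower.

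**Figure D4:**
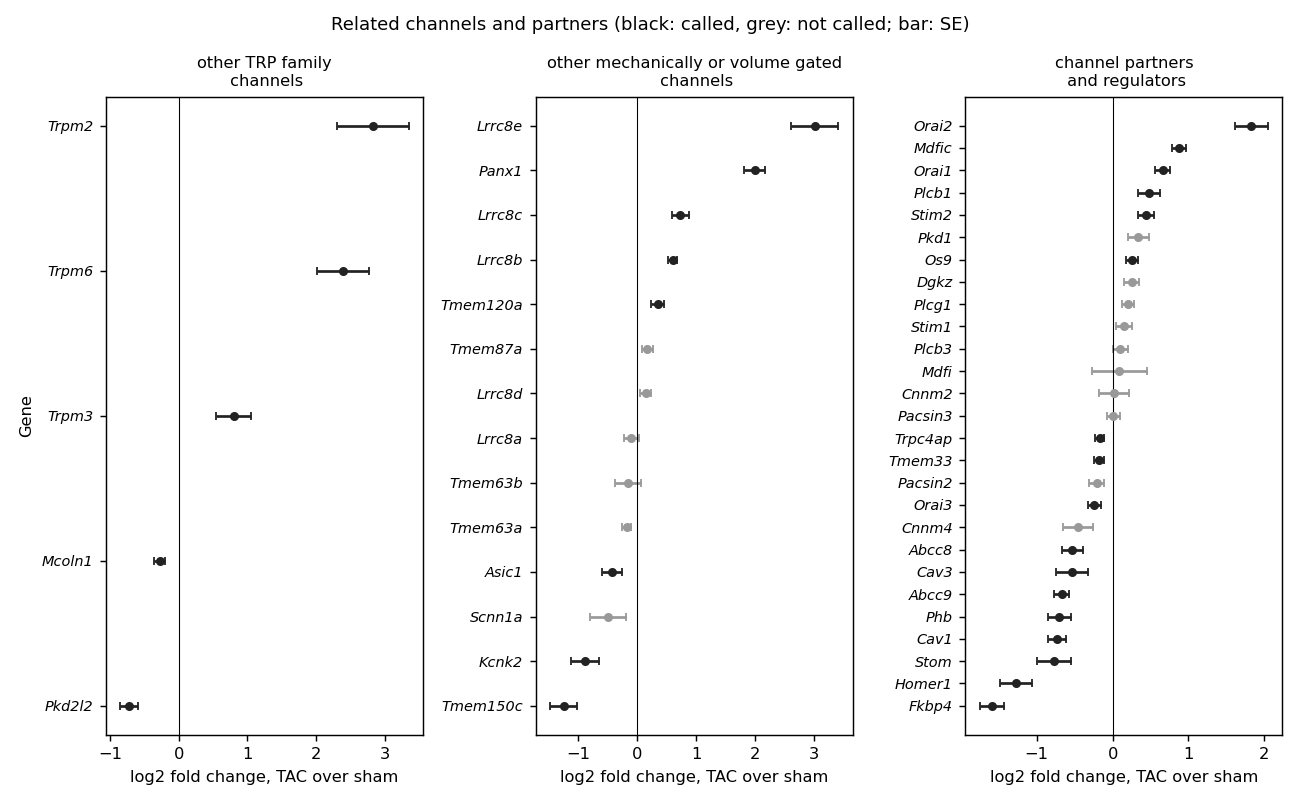
Log2 fold change (TAC over sham, bar: SE) of tested genes of 3 lists, namely other TRP channels, other channels gated by tension or volume, and channel partners and regulators, with called genes in black. Trpm2, Trpm6, Lrrc8e, Panx1 and Orai2 lie farthest to the right, and Fkbp4 lies farthest to the left in its list.

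Genes of a list of Gq receptors and lipid signalling around TRPC channels were lower more often than higher. Of 18 tested, 2 rose and 8 fell, with a median of -0.11. The list also holds kinase genes that consume diacylglycerol, and some phospholipase C genes stand in the list of partners instead. The counts therefore give no direction for the supply of diacylglycerol. The receptor genes Adra1b (adrenergic alpha 1B) and Ednra (endothelin A) were lower, and on the log2 scale Adra1b fell by 2.00 (SE 0.16) and Ednra by 0.86 (SE 0.11). Dgka, a kinase gene that consumes diacylglycerol, fell by 0.88 (SE 0.10) on that scale. The nucleotide receptor gene P2ry6 rose by 1.34 (SE 0.22). Without TAC replicate 1 or sham replicate 1, 4 members rose instead of 2, and scaled by library size alone 7 did. Of 12 calcineurin and NFAT genes, 2 rose and 5 fell (median -0.39). Ppp3r1 and Ppp3cb, which encode calcineurin subunits, fell by 0.42 and 0.40 and the calcineurin regulator gene Rcan2 by 0.67, while the subunit gene Ppp3cc rose by 0.39. With library size alone 5 of this list rose and 1 fell, and Ppp3r1 and Ppp3cb were not called (-0.06 and -0.03).

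Genes known to answer stretch or shear did not move in a single direction. Of 18 tested, 6 rose and 7 fell, with a median of -0.13. Edn1, which encodes endothelin 1, rose by 3.72 (SE 0.26), Nppa (atrial natriuretic peptide) by 0.80 (SE 0.11) and Tagln (transgelin, an actin-binding protein) by 2.00 (SE 0.29). Of the exonic bases of Nppa 61.5%, and of those of Tagln 67.9%, are shared with genes on the opposite strand. The shear-responsive factor genes Klf2 and Klf4, which were chosen after their values were seen, had log2 fold changes of -1.22 (SE 0.27) and -1.03 (SE 0.16) and were called lower, and so was the immediate early gene Egr1 at -2.63 (SE 0.38), chosen in the same way. Here and in the other lists the calls are of edgeR, and the shares of all genes called, given above, apply to each count.

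Besides the heart muscle and macrophage lists given above, the summed markers of fibroblasts, smooth muscle, lymphatic vessels and mast cells did not overlap between groups. Of 12 fibroblast markers 8 were higher and 2 lower, with a summed level of 7371 to 14718 CPM in TAC and 4988 to 6866 CPM in sham. The collagen genes Col3a1, Col1a2 and Col1a1 made up much of the TAC sum. Their means were 3430.6, 1743.9 and 1292.9 CPM in TAC and 457.4, 271.9 and 178.7 CPM in sham. The 2 lower markers, Gsn and Dcn, averaged 1000.1 and 903 CPM in TAC and 3264.3 and 1195.5 CPM in sham. These 5 were singled out after their values were seen, and the sum mostly follows the collagen genes. Of 10 smooth muscle and pericyte markers 6 were higher and 1 lower, with sums of 779 to 1109 CPM in TAC and 411 to 553 CPM in sham. Vascular endothelial markers, 4 higher and 1 lower of 10, had overlapping sums of 1150 to 1587 CPM in TAC and 1097 to 1445 CPM in sham. Lymphatic endothelial markers, 1 higher and 3 lower of 5 tested, had sums of 81.7 to 127.6 CPM in TAC and 166 to 231 CPM in sham. Erythroid markers, all 5 higher, had sums of 297.7 to 2547 CPM in TAC and 135.7 to 300.1 CPM in sham, which overlapped. Mast cell sums, with 2 of 5 tested markers higher and 1 lower, were 11.6 to 20.1 CPM in TAC and 4.39 to 11.3 CPM in sham. Adipocyte markers, 1 higher and 5 lower of 6 tested (median log2 fold change -2.92), had overlapping sums of 170.6 to 289.5 CPM in TAC and 156.1 to 226.9 CPM in sham. Most of these sums was Fabp4, the 1 that rose, which is also on the vascular endothelial list. It stood at 226.8 ± 43.05 CPM in TAC and 153.6 ± 18.03 CPM in sham (SD, n = 5 each). Among the 5 lower, Plin1 averaged 0.476 CPM in TAC and 7.25 CPM in sham. The overlap of the sums therefore does not describe the other adipocyte markers. The sums of lymphocyte, endocardial, ventricular muscle and epicardial markers overlapped as well. TAC replicate 2, with the highest fibroblast and smooth muscle sums, had the highest Piezo2 and Pkd2 of the TAC libraries. Its Trpc6 level was the lowest, on 43 reads against 42 to 61 over the TAC libraries, too few to order them. The part of these lists in the channel results was not tested.

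**Figure D5:**
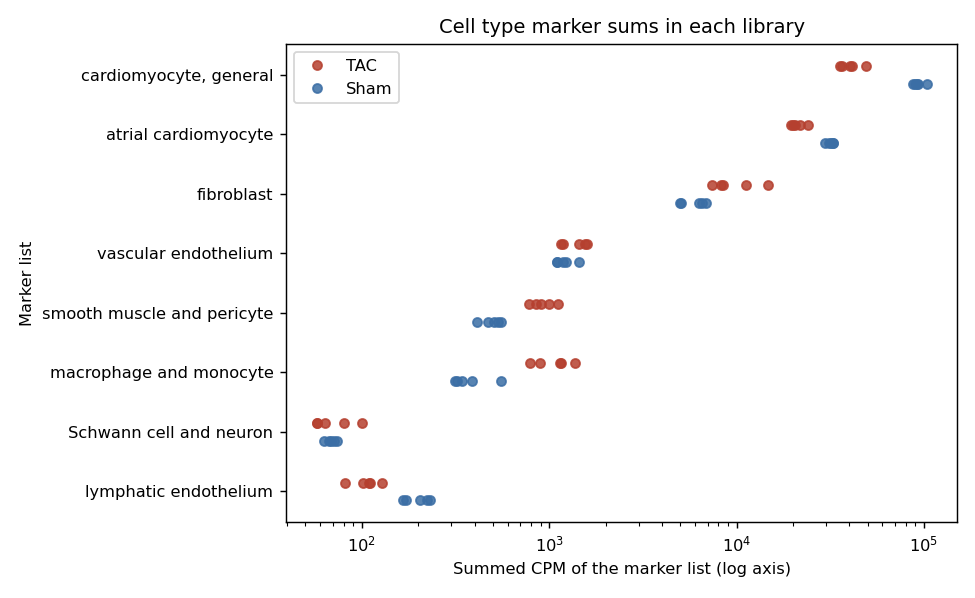
Summed CPM of 8 cell type marker lists (log axis) in each of the 5 TAC and 5 sham libraries, 1 point per library, TAC above sham. Both heart muscle sums and the lymphatic sum are lower in every TAC library, fibroblast, smooth muscle and macrophage sums are higher, and vascular endothelial and Schwann cell sums overlap.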

How the data were processed

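Bulk RNA-seq of 10 left atrial libraries, 5 TAC and 5 sham, was grouped by sample title. The deposited values are raw counts per gene symbol, 1 table per library, made without normalization. Per the submitters' processing notes the tools were bcl2fastq and STAR, with build mm10 and no versions. Which program counted the reads, with which strand setting and annotation, is not given in the sources used here. The 5 closing tallies, which name no gene and held 25.9% to 29.1% of all reads, stayed out of library sizes and tests. The tally named ambiguous did not overlap between groups, at 5.34% to 6.09% in TAC and 3.85% to 4.48% in sham. Its part in the counts of genes with shared exonic bases was not tested.

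The members and gene lists were chosen with earlier results of these data known. From the counts, edgeR 4.0.16 (R 4.3.3) was run with TMM factors, filterByExpr, robust quasi-likelihood F tests and group as the only term, on 15175 genes, with Benjamini-Hochberg adjustment over all of them. The SE is the log2 fold change over the square root of F. Lists were described by counts and medians, with no set test. Named genes were the 9 channel genes, up to 3 called genes with the smallest adjusted p from each list plus 1 of the rarer direction, and 3 nearest profiles per channel gene (prior count 2). Cell type lists are given by counts and sums, except some with overlapping sums, for which no values are given. In the list of other TRP channels, 1 tested gene is counted but not reported here by name or in the plot. Of 48397 symbols, 46294 (95.7%) matched a single GENCODE M21 gene (GRCm38, known as mm10 too), the source of positions and merged exon lengths. Alternatives, 23 for each gene, were DESeq2 1.42.0, limma 3.58.1 voom, other scalings, filters and thresholds, non-robust estimation, a replicate block, thinned counts, and libraries left out. On simulated counts of 15015 tested genes, 46% of 1.5-fold, 73.5% of 2-fold and 94% of 4-fold increases and 54.2% of decreases to 0.5-fold were recovered. Of 138 calls there, 4.35% were false. Only 48 to 50 tested genes per fold were changed in the simulation, whereas 56.8% of all genes were called in the data. The rates may therefore not carry over to this comparison. Depth limits low genes most, since counts of a few reads carry large counting error.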

Additional observations from a re-analysis of the deposited data

Results flagged for a closer look

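Libraries whose value lay far from the other 4 of their group were sought by Dixon's test in 63 named genes, that is in 126 groups of 5 libraries, of which 14 were marked. Chance marks about 1 in 20 such groups. Among the 9 channel genes a single library was marked, sham replicate 4 for Trpv2, at 3.92 CPM with the next sham library at 2.24. The same library was marked for Pfkfb4 (4.97 CPM) and C5ar1 (9.41 CPM), which were picked for their likeness to Trpv2. TAC replicate 1 was marked as highest for Ednra (60.1 CPM), Rcan2 (470.2 CPM) and Klf4 (36.6 CPM) and as lowest for Tmem176a (48.0 CPM). Other TAC libraries were marked for Lrrc8e (replicate 5, 2.56 CPM), Timp1 (replicate 2, 68.8 CPM) and, as the lowest, Ppp3cc (replicate 3, 20.3 CPM). Other sham libraries were marked for Lrrc8b (replicate 1, 16.8 CPM), Camk4 (replicate 2, 1.41 CPM), Egr1 (replicate 2, 575 CPM) and, as the lowest, Ddah1 (replicate 3, 3.80 CPM).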

How the results depend on the processing

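Scaling was the choice that mattered most. With library size as the only scaling, 7741 of all tested genes were higher and 1929 lower in TAC (80.1% of calls higher, instead of 50.9%), and 0 of the channel genes were called lower instead of 2. Under it the log2 fold changes of Trpv4 (0.04), Mcoln1 (0.08) and Gabarapl1 (0.07) changed sign, none of them called. The calls of Piezo1, Piezo2, Trpc6, Trpv2 and Pkd2 held under all 23 alternatives, and those of Trpc1 and Trpm4 under all but this scaling. Upper-quartile factors gave 7 partners lower instead of 11 and 4 Gq genes higher instead of 2, no filter gave 7 partners lower, and leaving out the 2 shallow sham libraries gave 4 Gq genes higher. At an adjusted p under 0.01, 6 partners, 3 calcineurin and NFAT genes and 1 other TRP gene were lower. The cause of these shifts was not tested. Libraries with the same replicate number did not deviate together (correlations of -0.0355 to 0.0796, against -0.16 to 0.196 for other pairs of a sham and a TAC library). This measure cannot settle whether the numbers pair the samples. With the replicate block, 4103 genes were higher and 3917 lower, and among the channel genes 5 were higher and 2 lower. Depth limits Trpc6 and the other genes with few sham reads.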
